A study of Mus musculus with 12 samples.

Results

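The comparison set the 2 libraries made 1 day after myocardial infarction (MI) against all 6 libraries made 12 days after it, 8 of the 12 libraries of the series. The libraries were taken by time point alone, so the day 12 side pooled 3 libraries from mice given vehicle with 3 from mice given Sfrp2, a secreted Wnt-binding protein. The study asked how c-Kit(+) cells of the heart and Wnt inhibition bear on repair after MI. All mice were C57BL/6 c-KitCreERT2/mTeG, aged 8 weeks, and were injected on 14 days with tamoxifen at 0.5 mg per day to switch on a Cre recombinase driven from c-Kit, which marks cells with eGFP. A cell marked in this way carries eGFP whether or not it still makes Kit, so the isolated cells need not be Kit-expressing at the time of sampling. Vehicle or Sfrp2 was given 2 days after MI, and the day 1 cells were therefore taken before that treatment, although their label also carries the word vehicle. The column names of the day 12 libraries say 14 days where the labels say 12, and the labelled day is used here. The labels do not say whether replicates came from separate mice, so p-values measure the spread between libraries, which may be technical.

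The first days after an infarct are the inflammatory phase of cardiac repair, in which stressed and resident cells release chemokines that draw in monocytes and neutrophils. In the following week fibroblasts lay down a collagen scar and inflammation subsides. Osteopontin (Spp1), the monocyte attractant Ccl2 and S100a4 are associated with the early phase, and Epas1 (HIF-2 alpha) is a hypoxia-responsive transcription factor that endothelial cells express strongly.

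Total RNA was amplified and sequenced, and the deposited values were gene counts divided by a size factor, called normalized values here. The 8 libraries held 200641 to 2683841 reads, of which most came from the mitochondrial ribosomal RNAs, leaving 115208 to 382217 reads outside the mitochondrial and satellite-like genes. The satellite-like genes are 5 predicted genes, picked after the values were seen for a large share of reads in a day 12 library. They held 3.38% to 4.67% of reads at day 1 and 1.09% to 38.7% at day 12, a contrast that their choice favours. Vehicle replicate 3 had the fewest reads and the largest satellite-like share, with 2.01% from mitochondrial rRNA where the other 7 libraries had 52.9% to 79.1%. Vehicle replicate 2 stood apart in another way: 2314 of the 15223 listed genes had no read there, against 29 to 1599 in the other 7 libraries, and it was the highest day 12 library for many of the genes below. Values without these 2 libraries are given beside several results and at the end. In RNA from a pool of cells, fewer cells of a type and less RNA per cell cannot be told apart.

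No gene passed the test at a Benjamini-Hochberg adjusted p of 0.05 (limma on log2 of the normalized value plus 1, two-sided), a call rate of 0.0% over the 4950 genes whose normalized value averaged 10 or more across the 8 libraries. At an unadjusted p under 0.05 there were 103 genes higher (2.08%) and 99 lower (2.0%) at day 1, 202 in all (4.08%), where 247.5 were expected if no gene differed. The edgeR quasi-likelihood test on the recovered whole reads also called none, with 188 at an unadjusted p under 0.05. DESeq2 on the same reads called 8 (0.162%): Spp1, Ccl2, Maf, Hyou1, mt-Ti, mt-Tc and mt-Te higher at day 1, and Xist lower. The comparison is therefore described below through values by library, with the day 1 libraries called separate from day 12 where both lay above, or both below, all 6 day 12 libraries. Of the 4950 genes, 208 (4.2%) were separate with day 1 above and 174 (3.52%) with day 1 below; of all 15223 listed genes, low ones included, 2.4% lay above and 5.11% below. A gene high in 1 group can reach the mean of 10 through that group alone, as Spp1, Ccl2, Ccl7, Pf4, S100a10, S100a11, S100a16 and mt-Tc did through day 1. Kit, Ern1, Col5a1, Tnc and Pdgfra, among others, reached it through day 12. Gene lists are therefore also counted over all listed members, for which the median log2 difference of all listed genes was -0.25.

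**Figure D1:**
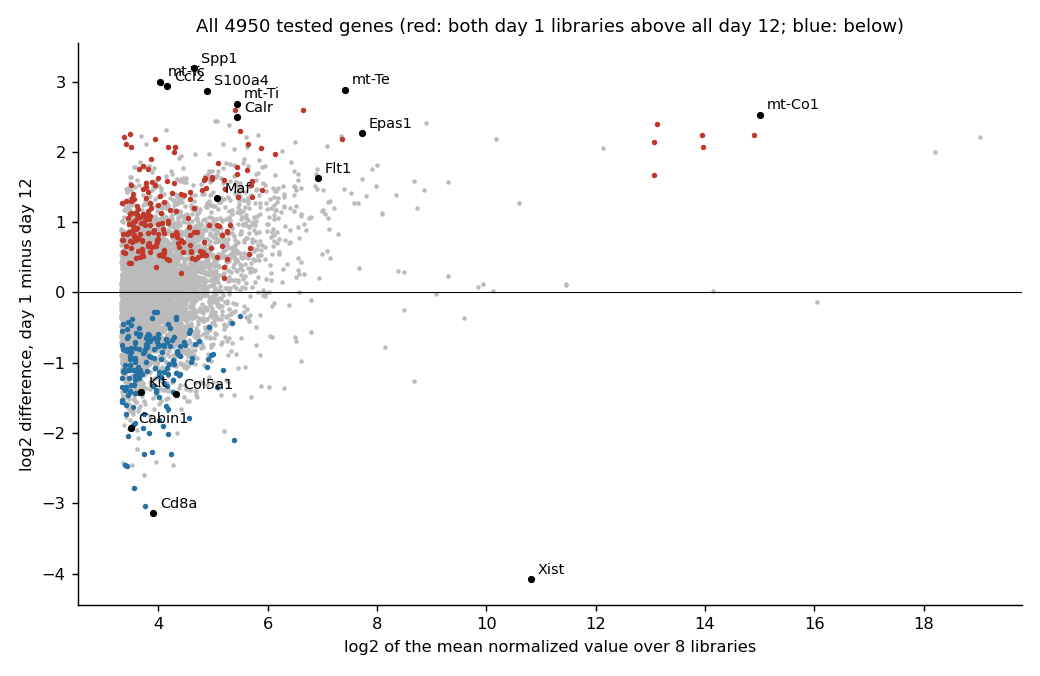
Difference between day 1 (2 libraries) and day 12 (6 libraries) on the log2(value + 1) scale for each of the 4950 tested genes, against the log2 of its mean normalized value. Red and blue points are the 208 and 174 genes whose day 1 libraries lay above or below all day 12 libraries, grey points overlap, and named genes are in black.

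Spp1, which encodes the secreted matrix protein and cytokine osteopontin, had the largest positive log2 difference of the tested genes. Its normalized value was 87.9 and 59.7 at day 1, and at day 12 it ran from 1.87 to 20.7 with a median of 7.24. Both day 1 libraries lay above every day 12 library, and no read was counted in any of the 3 libraries from before MI. The difference was 3.19 on the log2 scale (SE 0.69; limma, adjusted p = 0.852; DESeq2, adjusted p = 0.0035). Among Spp1 and the adhesion receptors that bind osteopontin, 8 genes were tested and Spp1 alone was separate. Cd44, the hyaluronan and osteopontin receptor, was at 147 and 165 at day 1, and at day 12 from 16.8 to 219 with a median of 39.6. Only vehicle replicate 2 reached the day 1 level of Cd44. The integrin subunits Itgb1 and Itgb3, which form osteopontin-binding dimers, overlapped between days, with log2 differences of 0.82 and -0.40.

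Ccl2, the ligand of Ccr2 on inflammatory monocytes, was at 56.5 and 42.5 at day 1. At day 12 it ran from 0 to 14.0, with a median of 7.90. The days were separate, with vehicle replicate 2 the highest and vehicle replicate 3 the lowest of day 12, and they differed by 2.93 on the log2 scale (SE 0.87; adjusted p = 0.852 by limma). Its neighbour in function Ccl7 was at 59.7 and 31.0 at day 1 against 0 to 20.1 at day 12, median 4.62. Ccl9, a CC chemokine of mice made by myeloid cells, was at 111 and 101 against 7.48 to 58.4, median 15.8. Both were separate, with log2 differences of 2.98 (SE 0.95) and 2.60 (SE 0.65), and Ccl9 was at 0 in all 3 libraries from before MI. The platelet chemokine Pf4 was the other separate one, at 22.6 and 24.1 against 0 to 14.0.

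Ccl6, another CC chemokine of mouse myeloid cells, was at 71.0 and 62.0 at day 1 and at 74.9 in vehicle replicate 2, while the other 5 day 12 libraries ran up to 14.8. The neutrophil attractant Cxcl2 was at 145 and 45.9 at day 1 and at 121 in vehicle replicate 2. Cxcl12, which retains progenitors and is made by stromal and endothelial cells, was at 269 and 181 at day 1 against 30.1 to 197. Its level before MI was higher than at either day, from 454 to 691. Ccl6, Cxcl2 and Cxcl12 each overlapped through vehicle replicate 2. The list held an exception: Cxcl1, a neutrophil attractant, was at 6.45 and 5.74 at day 1 and at 1.87 to 24.4 at day 12. Of 20 chemokines on the list, 17 were listed: 6 had day 1 above all day 12 libraries and 1, Cxcl16, had day 1 below, and their median log2 difference was 1.69. Among the 9 tested, 4 were separate, and 3 of these 4 reached the mean of 10 through day 1.

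**Figure D2:**
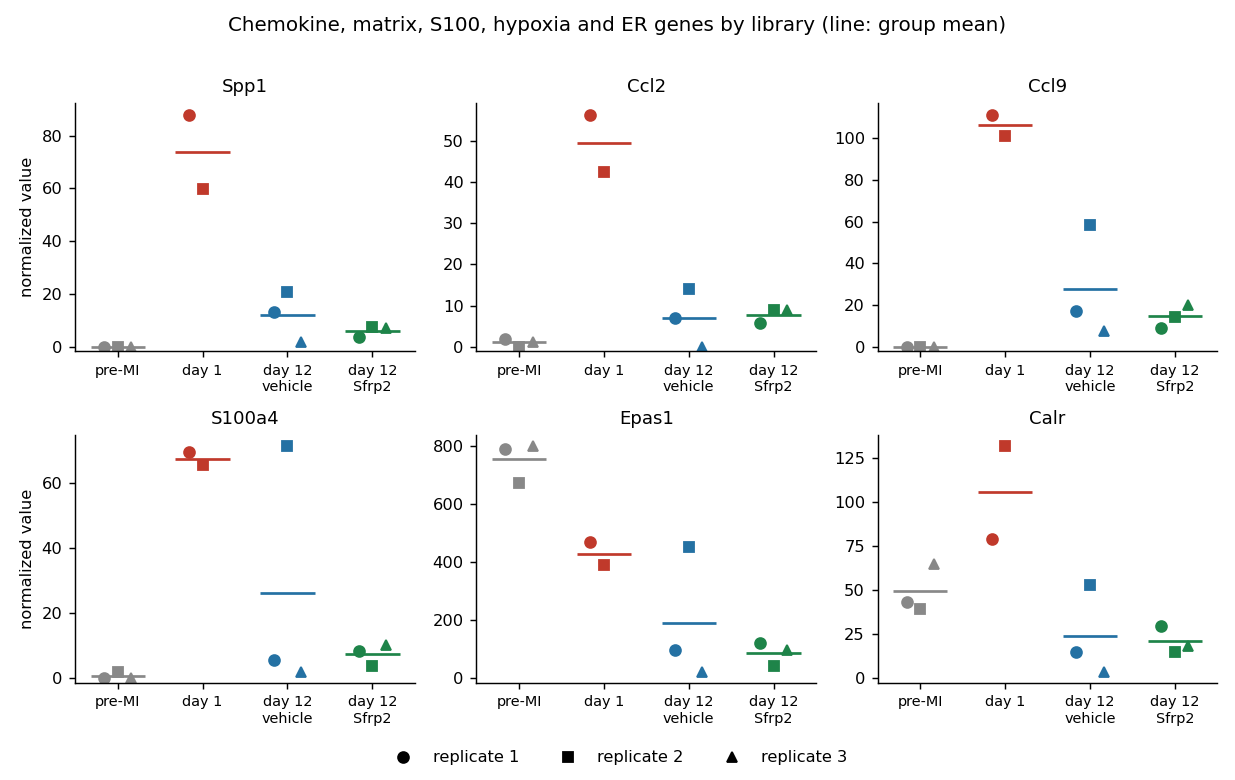
Normalized value of 6 genes in each library, on a linear axis from 0, with a line at the group mean; marker shape gives the replicate number, and the pre-MI libraries are shown for context. The day 1 libraries of Spp1, Ccl2, Ccl9 and Calr lie above all day 12 libraries, while vehicle replicate 2 (blue square) lies at the day 1 level for S100a4 and Epas1.

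S100a4, a calcium-binding protein of motile fibroblasts and myeloid cells, was at 69.4 and 65.4 at day 1. At day 12 it was at 71.2 in vehicle replicate 2 and from 1.87 to 10.2 in the other 5 libraries. A single library thus made the days overlap, and the log2 difference of 2.87 (SE 0.96; limma, adjusted p = 0.852) was 3.46 without that library (limma, adjusted p = 0.094). S100a6 had the same layout, at 40.3 and 36.7 at day 1, 44.4 in vehicle replicate 2 and 7.48 to 12.7 in the others. S100a10, S100a11 and S100a16 were separate, with S100a11 at 25.8 and 34.4 against 2.34 to 25.0. Of 10 S100 genes, 9 were listed, 4 of them with day 1 above all day 12 libraries and none below, and their median was 1.46; among the 5 tested, 3 reached the mean of 10 through day 1. The alarmins S100a8 and S100a9, made by neutrophils, were under the mean of 10: S100a9 was at 4.84 and 12.6 at day 1 and at 0 to 7.31 at day 12.

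Epas1 was at 468 and 390 at day 1, at 452 in vehicle replicate 2 and from 20.6 to 122 in the other 5 day 12 libraries. The log2 difference was 2.27 (SE 0.93; limma, adjusted p = 0.852), and 2.74 without vehicle replicate 2 (limma, adjusted p = 0.17). Its level before MI was higher than at either day, from 672 to 800. Of 24 hypoxia genes on the list, 14 were tested. Epas1 had the largest log2 difference among them, and their median was 0.32. None of the 14, Epas1 included, was separate in either direction. Without vehicle replicates 2 and 3, limma called 3 of the 14 higher, where it called 3.52% of all tested genes higher. Among the 22 listed, 1 (Bnip3) had day 1 above all day 12 libraries and none below, with a median of 0.30. Of all listed genes, 2.4% lay above. Hmox1, which degrades heme, was at 34.7 and 42.5 at day 1 against 0 to 39.0, and the glycolytic enzyme Aldoa at 69.4 and 63.1 against 3.74 to 74.3. Hif1a, the other oxygen-regulated subunit, was at 30.6 and 11.5 against 9.35 to 43.8.

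The promoters of 3 of the 6 leading genes looked up were in the RefSeq table used (GRCm38.p6, the build of the files), and they are shown because Spp1, Ccl9 and S100a4 lay high at day 1 together. Each line gives the 250 bases before the listed start. Capitals mark matches, on either strand, to a TATA box (TATAAA), an AP-1 site (TGANTCA) or the core of a RUNX site (ACCACA), and overlapping matches run together. Spp1 lies at chr5:104434861-104435110 on the plus strand, Ccl9 at chr11:83578637-83578886 on the minus strand and S100a4 at chr3:90603520-90603769 on the plus strand.
Spp1: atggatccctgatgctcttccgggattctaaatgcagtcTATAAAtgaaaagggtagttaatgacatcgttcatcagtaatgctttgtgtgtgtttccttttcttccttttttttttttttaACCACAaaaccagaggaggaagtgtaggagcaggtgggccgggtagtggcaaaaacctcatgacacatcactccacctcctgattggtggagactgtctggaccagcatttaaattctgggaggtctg
Ccl9: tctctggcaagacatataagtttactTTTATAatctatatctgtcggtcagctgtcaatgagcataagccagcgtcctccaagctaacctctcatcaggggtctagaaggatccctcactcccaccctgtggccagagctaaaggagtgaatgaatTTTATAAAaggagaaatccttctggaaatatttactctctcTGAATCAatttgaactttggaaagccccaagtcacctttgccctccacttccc
S100a4: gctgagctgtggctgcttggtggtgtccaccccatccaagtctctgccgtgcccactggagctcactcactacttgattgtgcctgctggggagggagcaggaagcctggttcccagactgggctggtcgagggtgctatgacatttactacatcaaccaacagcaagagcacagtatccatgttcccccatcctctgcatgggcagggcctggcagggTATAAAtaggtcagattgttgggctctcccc
All 3 held TATAAA, as did 12.4% of the 32851 promoters of the table; it began 31 bases before the start in S100a4, 211 before it in Spp1, and at 3 places in Ccl9, some overlapping. Ccl9 also held the AP-1 letters, 53 bases before its start, beside 6.75% of all promoters. Spp1 held the RUNX core, 128 bases before its start, beside 14.0% of all promoters. These are matches of letters and were not tested for binding.

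The second group that stood high at day 1 was RNA encoded by the mitochondrial genome. Mitochondrial mRNA made up 12.7% and 13.3% of reads at day 1 and 1.78% to 9.07% at day 12, with a median of 8.14%. The days did not overlap; the difference of 5.88 percentage points had an exact two-sided permutation p of 0.0714, the smallest that 28 ways of choosing 2 of 8 libraries allow. It was 4.82 to 6.28 points with each library left out in turn. Mitochondrial rRNA overlapped, at 72.6% and 75.1% against 2.01% to 79.1% (exact permutation p = 0.429). All 8 listed mitochondrial mRNAs had day 1 above all day 12 libraries, with a median log2 difference of 2.19, which was 1.59 without vehicle replicates 2 and 3 and 1.53 against the Sfrp2 libraries only. The cytochrome oxidase subunit mt-Co1 was at 60048 and 68019 at day 1 and at 279 to 49688 at day 12, and none of the 8 had an unadjusted p under 0.05. Before MI, mt-Co1 was higher than at either day, at 97540 to 174229, and mitochondrial mRNA made up 10.3% to 11.9% of reads. Beside these mRNAs, 20 tested nuclear genes of the respiratory chain had a median of 1.23, and 2 were separate with day 1 above.

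The smallest adjusted p of the whole comparison belonged to a mitochondrial tRNA gene, and 4 such genes are shown because 3 of them were also called by DESeq2 and the fourth by the fit with a covariate described below. The sequences are those of the GENCODE vM21 transcripts on GRCm38, with the anticodon in capitals. The genes are mt-Ti, for isoleucine, at chrM:3706-3774 on the plus strand; mt-Tc, for cysteine, at chrM:5192-5257 on the minus strand; mt-Te, for glutamate, at chrM:14071-14139 on the minus strand; and mt-Tq, for glutamine, at chrM:3772-3842 on the minus strand.
mt-Ti: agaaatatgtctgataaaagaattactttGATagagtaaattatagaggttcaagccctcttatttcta
mt-Tc: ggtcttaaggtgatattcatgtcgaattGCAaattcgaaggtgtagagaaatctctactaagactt
mt-Te: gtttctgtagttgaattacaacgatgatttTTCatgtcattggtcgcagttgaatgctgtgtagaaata
mt-Tq: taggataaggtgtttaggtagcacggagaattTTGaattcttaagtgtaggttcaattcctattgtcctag
The genes are 66 to 71 bases long, and mt-Ti and mt-Tq overlap by their ends on opposite strands. Whether reads were counted by strand is not given in the sources used here, so reads of these genes and of the mRNA and rRNA precursors around them cannot be told apart.

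mt-Ti was at 124 and 114 at day 1 and from 13.4 to 24.3 at day 12, with a median of 17.7. The 6 day 12 libraries lay close together and both day 1 libraries lay far above them, also compared with vehicle replicates 2 and 3. The log2 difference was 2.68 (SE 0.39; limma, adjusted p = 0.155; DESeq2, adjusted p = 6.97e-10). mt-Tc was at 29.8 and 71.2 against 3.04 to 7.75, and its limma adjusted p was 0.348 on a log2 difference with an SE of 0.52. mt-Te was at 269 and 712 against 31.8 to 105, and mt-Tq at 190 and 331 against 21.3 to 112. These were separate too, although the 2 day 1 libraries differed from each other for mt-Tc and mt-Te. Of 12 listed mitochondrial tRNAs, 7 had day 1 above all day 12 libraries and none below, with a median log2 difference of 1.74; 7 were tested, of which 5 were separate. mt-Tm, for methionine, overlapped only through vehicle replicate 3, at 74.8 there against 65.3 and 87.2 at day 1. mt-Tp, for proline, was at 21.0 and 20.7 against 3.65 to 21.97. As a share of mitochondrial mRNA reads, tRNA reads were 0.403% and 0.557% at day 1, 4.25% in vehicle replicate 3 and 0.165% to 0.370% in the other 5 day 12 libraries. Levels before MI were 55.7 to 120 for mt-Ti and 617 to 886 for mt-Te.

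**Figure D3:**
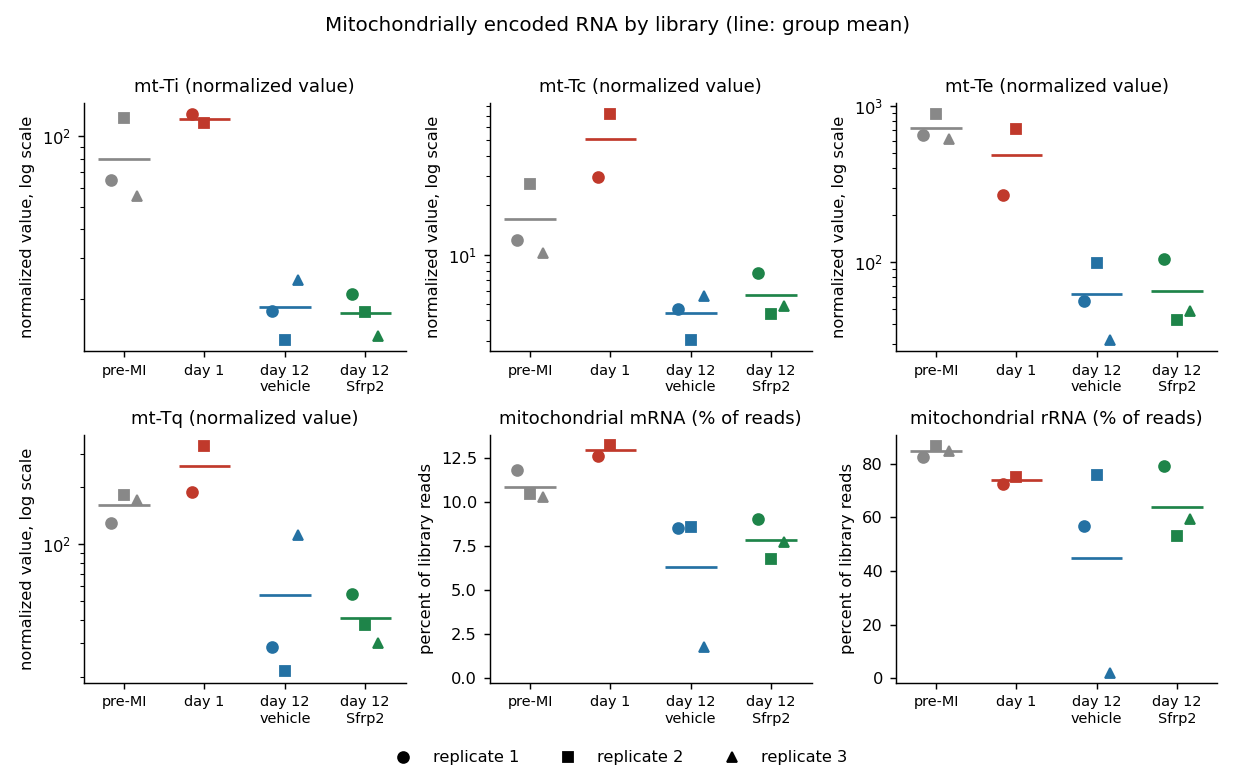
Normalized values (log axis) of 4 mitochondrial tRNA genes and the percent of library reads from mitochondrial mRNA and rRNA (linear axes from 0), one point per library with a line at the group mean. The day 1 points lie above all day 12 points in every panel except mitochondrial rRNA, where Sfrp2 replicate 1 and vehicle replicate 2 lie at or above day 1.

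Genes of the endoplasmic reticulum also lay high at day 1; this list was drawn up after Calr, Hyou1 and Pdia6 were seen, and is a description only. Calr, the chaperone calreticulin, was at 79.0 and 132 at day 1 and at 3.74 to 53.0 at day 12, with a median of 16.7. Hyou1, a chaperone of the stressed endoplasmic reticulum, was at 35.5 and 44.8 against 10.7 to 20.6, median 13.8, which differed by 1.39 on the log2 scale (SE 0.39; adjusted p = 0.852 by limma and 0.0385 by DESeq2). Both were separate, as were the disulfide isomerase Pdia6, the chaperones Hspa5 and Hsp90b1, the oligosaccharyl transferase subunit Rpn1 and the coat protein Copb2. Of 42 genes, 40 were listed, 11 with day 1 above and 1 with day 1 below, and their median was 0.70. The gene below was Ern1, the sensor kinase IRE1 of the unfolded protein response, at 6.45 and 3.44 against 9.35 to 19.5. The transcription factor Maf was at 61.3 and 63.1 at day 1 against 20.0 to 30.4 at day 12, 1.34 higher on the log2 scale (SE 0.37).

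Vessel genes are described next, as a set that was not alone in lying higher. The median log2 difference was 1.26 for 20 tested cytosolic ribosomal protein genes and 1.24 for 8 tested erythroid genes. It was 0.97 for the 252 genes with a mean of at least 50. Flt1, the VEGF receptor of endothelial cells, was at 261 and 215 at day 1 and at 38.9 to 132 at day 12, with a median of 81.3. Rgs5, a regulator of G protein signalling typical of pericytes, was at 411 and 311 against 31.8 to 247, median 85.7. Both were separate, with log2 differences of 1.63 (SE 0.52) and 2.19 (SE 0.71), and both were also present before MI, Flt1 at 290 to 328 and Rgs5 at 399.8 or more. Rgs5 did not stand for its list: of 11 listed smooth muscle and pericyte genes, it alone had day 1 above. Only 3 of the 11 had a positive log2 difference, and their median was -0.23, or 0.86 over the 5 tested. Over 20 tested endothelial genes the median was 1.11, with 2 separate above and 1 below. That one was Vwf, the clotting factor of endothelial granules, at 17.7 and 16.1 at day 1 against 22.4 to 42.0. The summed value of the 24 listed endothelial genes was 2189 to 3308 at day 1 and 295 to 2989 at day 12, and 6735 to 7416 before MI. Without vehicle replicate 2, 15 of the 20 had day 1 above, where 16.8% of all tested genes did.

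**Figure D4:**
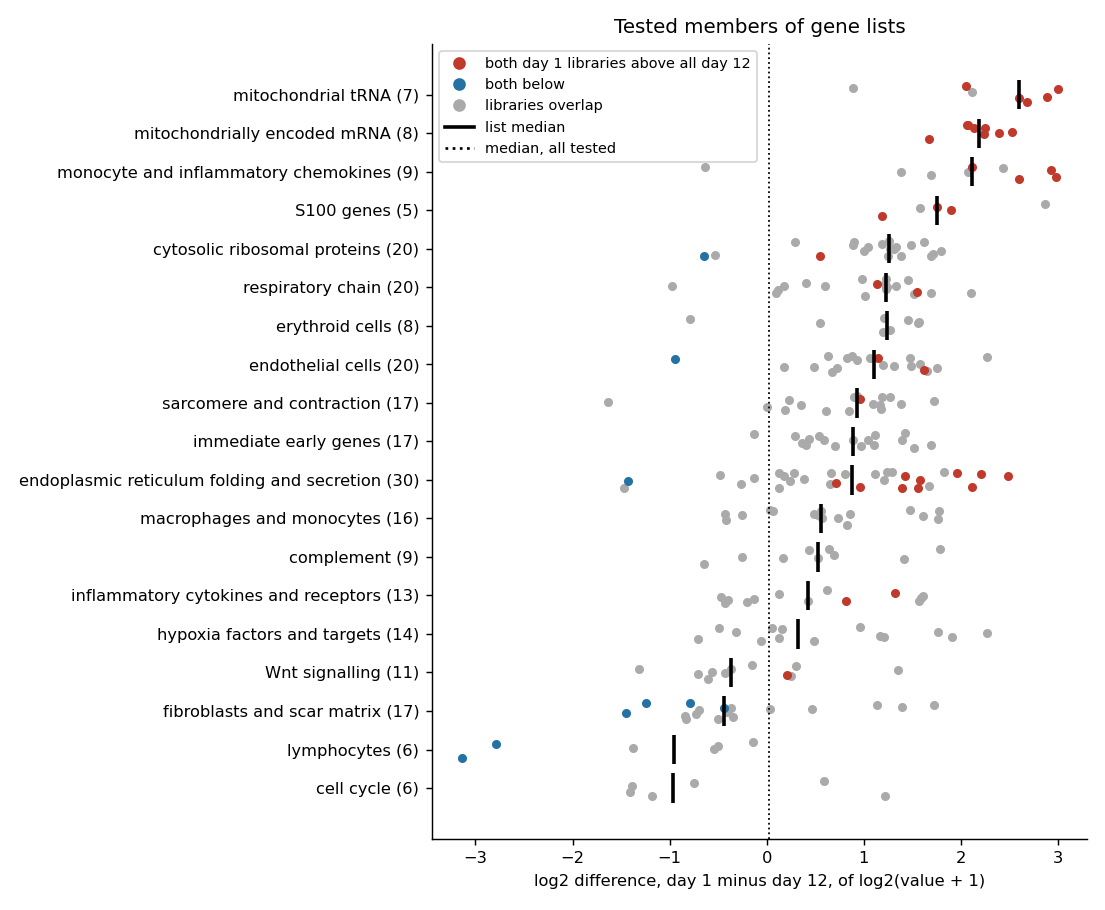
Log2 difference between day 1 and day 12 for each tested member of 19 gene lists, with the number tested in brackets, a bar at the list median and a dotted line at the median of all tested genes. That median was 0.02, while over the 252 genes with a mean of at least 50 it was 0.97. Mitochondrial RNA, chemokines and S100 genes lie to the right, with medians from 1.76 to 2.60, and lymphocyte and cell cycle genes lie to the left, both at -0.96; the mean of 10 admits some members only through the group where they are high.

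Genes lower at day 1 were at lower levels, and none of those below passed the limma test. Cabin1, an inhibitor of calcineurin, was at 2.42 and 3.44 at day 1 against 9.74 to 17.9 at day 12 (log2 difference -1.93, SE 0.42; limma, adjusted p = 0.852). Usp20, a deubiquitinating enzyme, was at 2.42 and 2.30 against 5.48 to 20.6. The Wnt co-receptor antagonist Kremen1 was at 8.07 and 2.30 against 11.7 to 37.4. All 3 were separate, on few reads, since the value of 1 read was 0.807 and 1.15 in the day 1 libraries. Kit, the gene whose locus drives the Cre, was at 5.65 and 3.44 at day 1 and at 6.34 to 33.7 at day 12, median 12.8, below all 6 day 12 libraries (log2 difference -1.42, SE 0.59; limma, adjusted p = 0.852). Kit rested on 7 and 3 reads at day 1, against 9 in Sfrp2 replicate 1. Like the 3 genes before it, Kit reached the mean of 10 through day 12 alone. Sfrp2 was under the mean of 10 and not tested: it was at 0 and 1.15 at day 1, at 3.11, 19.5 and 3.74 in the vehicle libraries and at 8.45, 6.91 and 11.04 in the Sfrp2 libraries. Of 37 Wnt genes 29 were listed, 1 with day 1 above and 3, Sfrp2 among them, with day 1 below, and their median was -0.42. Among the 11 tested, 4 reached the mean of 10 through day 12, and 1 was separate, with day 1 above. The median of the 11 was -0.37 with all 8 libraries. It was 0.04 without vehicle replicates 2 and 3 and 0.03 against the Sfrp2 libraries only, so the sign for tested genes rested on the vehicle libraries.

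Among T cell genes, Tcf7, a transcription factor of T cells and of Wnt signalling, was at 0 and 1.15 at day 1 and at 1.87 to 54.9 at day 12. Bcl11b, a T lineage factor, was at 4.03 and 1.15 against 8.79 to 55.6, and Ikzf3, a lymphoid zinc finger protein, at 3.23 and 2.30 against 5.48 to 30.3. All 3 were separate, with Sfrp2 replicate 1 the highest, but for Tcf7 the separation was that of 1 read in day 1 replicate 2 from 1 read in vehicle replicate 3, both under the floor of 3 reads. Cd8a had no read at day 1, where 3 reads would be a value of 2.42 or 3.44, and was at 1.56 to 87.9 at day 12, highest in vehicle replicate 3. Of 13 listed lymphocyte genes 3 had day 1 below and none above, and the median was -0.80; 5 of the 6 tested reached the mean of 10 through day 12.

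Scar matrix genes were mixed. Col5a1, a fibrillar collagen chain, was at 4.84 and 12.6 at day 1 against 16.9 to 30.4 at day 12, and the matrix glycoprotein Tnc at 2.42 and 9.18 against 9.35 to 26.5. Both were separate with day 1 below, as were Pdgfra, a PDGF receptor of fibroblasts, and the microfibril protein Fbn1. Thbs1, a matricellular protein of early wounds, lay the other way but overlapped, at 255 and 106 against 18.7 to 142. The 22 listed genes had a median of -0.45, with 1 above and 4 below. The gene above was Timp1, under the mean of 10, at 20.2 and 29.8 against 1.87 to 9.74. The proliferation genes Top2a and Mki67 overlapped: Mki67 was at 4.03 and 10.3 at day 1 and at 9.35 to 43.7 at day 12. Of 26 listed cell cycle genes 4 had day 1 below and none above, and the median was -0.62.

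**Figure D5:**
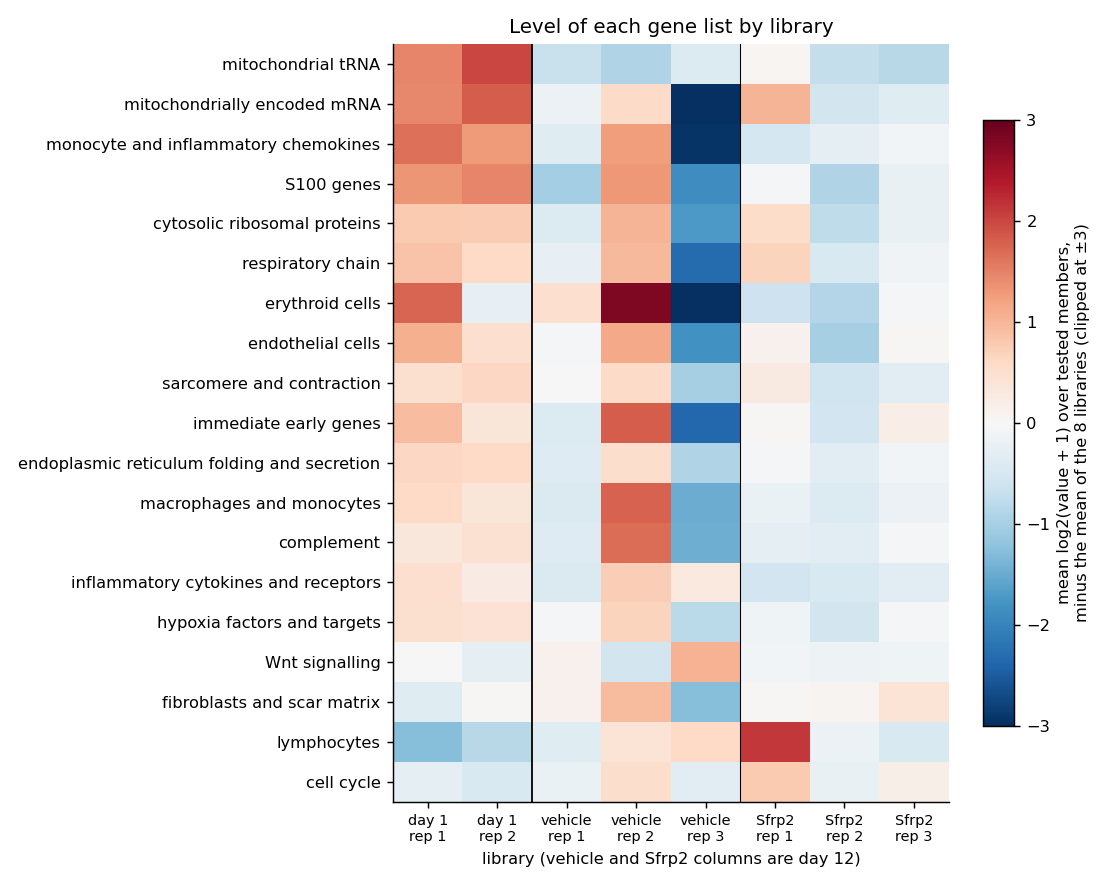
Mean log2(value + 1) over the tested members of each list in each of the 8 libraries, minus the mean of the 8 libraries, with red above and blue below that mean and colours clipped at 3. Vehicle replicate 2 is red like the day 1 libraries in most of the upper rows but blue for mitochondrial tRNA, and vehicle replicate 3 is blue in nearly all of the upper rows.

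Markers of other cells are given next by list, and their part in the differences was not tested. For macrophages and monocytes, 25 of 27 genes were listed and 16 tested, none was separate, the median was 0.56, and the summed value was 538 to 653 at day 1 and 243 to 1862 at day 12, highest in vehicle replicate 2. Ccr2, the receptor for Ccl2, was at 47.6 and 29.8 at day 1 against 1.56 to 39.3. For neutrophils, 8 of 14 genes were listed, none reached the mean of 10, and the sum was 30.6 to 60.8 at day 1 against 19.7 to 49.0. Among the 8, Lcn2 alone had day 1 above all day 12 libraries, at 12.9 and 16.1 against 0 to 3.89. Of all listed genes, 2.4% did. Erythroid genes summed to 889 to 5333 at day 1 and to 91.6 to 14828 at day 12, again highest in vehicle replicate 2. Cardiomyocyte transcripts were present too: Myh6, the adult myosin heavy chain, was at 36.3 and 49.4 at day 1 against 12.6 to 38.4 at day 12 and 227 to 439 before MI. Over 17 tested sarcomere and contraction genes the median log2 difference was 0.93. Of these, 1 (5.88%) was separate with day 1 above, where 4.2% of all tested genes were. The 24 listed had a median of 0.79, with 1 above and none below.

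The libraries also differed in transcripts of the sex chromosomes, and the labels used here give no sex. Xist, transcribed from the inactive X chromosome, was at 17.7 and 13.8 at day 1, at 530, 8088 and 39.3 in the vehicle libraries and at 5657, 28.9 and 15.9 in the Sfrp2 libraries. The Y-linked Eif2s3y was at 22.6 and 28.7 at day 1, at 0, 0 and 3.74 in the vehicle libraries and at 0, 9.42 and 10.2 in the Sfrp2 libraries. The part of this difference in the other results was not tested.

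Against the 3 Sfrp2 libraries alone, where neither vehicle replicate 2 nor 3 enters, limma called 23 genes (0.465%), 20 higher (0.404%) and 3 lower (0.0606%), at day 1 at an adjusted p of 0.05. The higher ones included 5 of 7 tested mitochondrial tRNAs and 4 of 9 tested chemokines, Ccl2, Ccl6, Ccl7 and Ccl9, with Spp1, S100a4, Cd44, Calr, Rgs5, the complement receptor C5ar1, the galectin Lgals1 and the matrix protein Tgfbi. Spp1 had a log2 difference of 3.45 there (limma, adjusted p = 0.00957). Against the 3 vehicle libraries alone limma called none, with 41 genes at an unadjusted p under 0.05. Whether the difference from day 1 itself differed between treatments is the comparison of Sfrp2 with vehicle at day 12, in which limma called no gene, with 54 at an unadjusted p under 0.05. With vehicle replicates 2 and 3 left out, a choice made after their values were seen, limma called 174 genes higher (3.52%) and 90 lower (1.82%). These held Epas1, at a log2 difference of 2.35 (limma, adjusted p = 0.0125), and 7 of 9 chemokines, 6 of 7 mitochondrial tRNAs, 3 of 5 S100 genes and 1 of 8 mitochondrial mRNAs, all higher at day 1. Such shares, here and against the Sfrp2 libraries, are of tested members only. Of those, 3 of the 9 chemokines, 1 of the 7 tRNAs and 3 of the 5 S100 genes reached the mean of 10 through day 1. The lists held 17, 12 and 9 listed genes. With sensory receptor reads, a measure of background, as a covariate, limma called 4 genes (0.0808%), Spp1, mt-Ti, mt-Tq and mt-Tc, all higher at day 1; a fit that weights each library by its spread called 219 genes (4.42%), 136 higher and 83 lower.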

How the data were processed

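RNA of isolated c-Kit(+) heart cells was amplified and sequenced. Reads were handled with Trim Galore, cutadapt, STAR, HTSeq and DESeq2, per the submitters' processing notes. The values deposited by the authors are a signal, gene counts divided by a size factor, and every value was a whole multiple of the library's value of 1 read within 0.001 reads, so whole reads were recovered. Day 1 and vehicle columns came from one deposited table and Sfrp2 columns from another; the day 1 columns are identical in both. GENCODE vM21 matched 15061 of 15223 genes (98.9%).

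Genes with a mean of at least 10 over the 8 libraries were tested with limma 3.58.1 (trend) in R 4.3.3 on log2(value + 1), with Benjamini-Hochberg adjustment and no covariate. This mean is set mostly by the 6 day 12 libraries. edgeR 4.0.16 and DESeq2 1.42.0 on recovered reads, other scalings, pseudocounts, filters, covariates and left-out libraries were alternatives. Tests were tried on simulated data with known answers. Single shares were tested by exact permutation of libraries. Read counts without molecular identifiers limit the precision of low values, and floors of 3 reads cover counting error only.

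Genes named are Spp1, Ccl2, S100a4, Epas1, Kit and Sfrp2, the genes with smallest p in each direction among those whose days did not overlap (since none passed the threshold; predicted genes excluded), and the members with smallest p in each list. Other genes named in the text were chosen after their values were seen. The members, the 28 lists and the tests were chosen with earlier results of these data known, and 1 further list was added later. Libraries from before MI are given as levels only, and the cardiomyocyte sample was not used here.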

Additional observations from a re-analysis of the deposited data

Results flagged for a closer look

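In 45 of 138 measures looked at over the 6 day 12 libraries, 1 library lay far from the other 5 by Dixon's test at its 95% critical value. Chance alone gives this in about 1 in 20 independent groups of normally distributed values. The 138 measures share the same 6 libraries, so the 45 cannot be set against that rate. The 6 libraries pool 2 treatments. Of the 45, 31 were high values in vehicle replicate 2. Among chemokines, S100 genes and other genes that also lay high at day 1, it had S100a4 at 71.2, S100a6 at 44.4, S100a11 at 25.0, Ccl6 at 74.9, Ccl9 at 58.4, Cxcl2 at 121, Cxcl12 at 197, Epas1 at 452, Cd44 at 219, Itgb1 at 131, Rgs5 at 247, Thbs1 at 142, Aldoa at 74.3 and Ly6c1 at 54.8. Among myeloid, cytokine, complement and antigen presentation genes it had Il1b at 31.7, Il1rn at 53.0, Ctsb at 134, Tyrobp at 40.8, Fcer1g at 77.9, C5ar1 at 153, C3 at 596, H2-D1 at 126 and the interferon-induced Ifitm3 at 109. Its immediate early genes Fosb, Jund and Egr1 were at 250.2, 153 and 278. The erythroid genes Alas2 and Hba-a1 were at 164 and 2770, the mesothelial genes Upk1b and Lrrn4 at 23.7 and 54.8, and Myh6 at 38.4.

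Vehicle replicate 3 was the distant library in 11 measures. It had high values of mt-Tq at 112, mt-Tm at 74.8, Cd8a at 87.9, Notch3 at 95.4, Slc4a1 at 54.2 and Fzd5 at 67.3. It had 2.01% of reads from mitochondrial rRNA, 1.78% from mitochondrial mRNA and 0.0758% from mitochondrial tRNA, tRNA reads at 4.25% of mitochondrial mRNA reads, and sensory receptor genes at 0.588% of its other reads. Sfrp2 replicate 1 was high for the T cell genes Bcl11b, at 55.6, and Tcf7, at 54.9. Vehicle replicate 1 was high for Tnc, at 26.5.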

How the results depend on the processing

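With limma, 0 genes were called higher and 0 lower at day 1, and the counts moved to 7 and 1 with DESeq2 (81 genes without an adjusted p), to 4 and 0 with the sensory receptor covariate, to 136 and 83 with library weights (whose estimation did not reach its tolerance), to 20 and 3 against the Sfrp2 libraries only, and to 174 and 90 without vehicle replicates 2 and 3, the last chosen after seeing the data; the cause was not tested. With each library left out in turn both counts stayed at 0, with 81 to 931 genes at an unadjusted p under 0.05, the most without vehicle replicate 2. Sfrp2 against vehicle at day 12 gave 0 calls, 0 with each library left out, and 727 with library weights. The mitochondrial mRNA difference was 4.82 to 6.28 points with each library left out. Replicate numbers shared by the vehicle and Sfrp2 groups did not pair libraries (correlations of same-numbered libraries -0.21, -0.65 and -0.02), and a replicate block gave 0 calls. Of the named genes, Upk3b alone changed direction, from 0.78 to a log2 difference of -0.0127 without day 1 replicate 2 (1.57 without day 1 replicate 1). The median log2 difference of all tested genes was 0.02, -0.08 with edgeR scaling, 0.08 with libraries centred on their median, and -0.25 without a filter on low values. Over the 252 genes with a mean of at least 50 that median was 0.97, so with all 8 libraries genes with high values as a whole lay higher at day 1. The median of these 252 genes was not computed without vehicle replicates 2 and 3. There were 2 day 1 libraries, 115208 to 382217 reads outside mitochondrial and satellite-like genes, and day 12 libraries that differ widely. Small differences in low genes were not detectable under these limits. Large differences also went uncalled in the main fit, such as Spp1 at 3.19 and the higher gene Epas1 at 2.27 (limma, adjusted p = 0.852 for both).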
